A study of Mus musculus with 6 samples.

Results

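ATF4 and its stress target genes were described as 9 genes chosen by symbol: Atf4, Atf5, Ddit3, Trib3, Chac1, Sesn2, Asns, Psat1 and Phgdh. All 9 were found among the 25896 gene symbols of the hippocampal RNA-seq tables. Each gene was represented by the transcript with the highest mean raw count over the 6 libraries. Dicer1-ifKO mice carried Dicer1 flox/flox alleles and CaMKIIa-creERT2, and they were set against WT mice with the same floxed alleles and no Cre. All were adult male C57BL/6 mice of 3 months, all had received tamoxifen, and all were killed 3 weeks later. The Cre promoter is active in forebrain excitatory neurons, so recombination is not driven in glia or vessels, which whole hippocampus also contains. There were 3 libraries per genotype, and every library pooled hippocampal RNA of 3 mice.

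ATF4 is the transcription factor of the integrated stress response. Kinases that sense unfolded protein, amino acid shortage, heme loss or viral RNA phosphorylate the alpha subunit of the initiation factor eIF2, which lowers general translation while upstream reading frames in the Atf4 leader let ATF4 protein rise. ATF4 then pairs with C/EBP-family partners at composite sites and induces genes for amino acid synthesis and import, tRNA charging, redox defence and, under lasting stress, cell death. In neurons ATF4, also called CREB2, has in addition been studied as a brake on long-term memory. Since ATF4 is set mainly by translation, its mRNA level does not give its protein level, which was not measured here.

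The sites at which ATF4 and a C/EBP partner bind have the core TGATGNAA, and 3 of the 9 members carry these letters near their start. The 300-base promoters of RefSeq (GRCm38.p6, 250 bases before to 50 after each start) held an entry for all 9 genes, with 11 promoters in total. The core was searched on both strands, with any overlap allowed. The windows that hold it are shown with the core in capitals and each strand written 5′ to 3′ in the direction of the core.
Asns: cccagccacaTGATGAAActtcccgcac
Chac1: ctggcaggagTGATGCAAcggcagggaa
Trib3: cccgcccggcTGATGTAAacctgagcta
The Asns window lies at chr6:7693215-7693242 on the minus strand, which is the strand of the gene, and its core begins 23 bases before the RefSeq start, which lies inside the deposited Asns-001 transcript. The Chac1 window lies at chr2:119351039-119351066, on the minus strand and opposite to the gene. The edge of its core farther from the start lies 193 bases before the start. The Trib3 window lies at chr2:152344029-152344056, on the plus strand and opposite to the gene. The edge of its core nearer to the start lies 14 bases past the start. Of all 32851 promoters in that table, 1304 or 3.97% held the core. A match is a description of the letters and not of binding, and a site outside the 300 bases was not searched.

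No member passed the test between the genotypes. Differences were tested by the quasi-likelihood F test of edgeR over 17405 genes, with p adjusted by Benjamini-Hochberg, where 0.161% of all genes (28) passed at an adjusted p below 0.05. Of the 9 members 8 were tested and 0 passed, with adjusted p from 0.234 to 0.996 in edgeR. At an unadjusted p below 0.05 there were 2 members, Atf4 and Asns, against 10.4% of all genes. DESeq2 gave an adjusted p for 4 members (Asns, Atf4, Psat1 and Phgdh, lowest 0.209) and also passed 0, where 1.56% of all genes with an adjusted p passed. Negative log2 fold changes (Dicer1-ifKO over WT) were found for 7 of the 8, with a median of -0.04, against 51% negative and a median of -0.0032 over all genes tested. The count was 4 in place of 7 when WT replicate 1, WT replicate 3 or Dicer1-ifKO replicate 2 was left out. The members are 1 pathway measured in the same libraries and not independent of each other.

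Atf4, on chromosome 15 at 80255184 to 80257540 (GRCm38), had 864, 1018 and 1166 counts in Dicer1-ifKO replicates 1, 2 and 3, against 763, 938 and 1040 in WT replicates 1, 2 and 3. Scaled to library size, this was 56.1, 56.5 and 56.9 CPM (counts relative to TMM-scaled library size) in Dicer1-ifKO, against 65.0, 59.0 and 64.0 CPM in WT. The Dicer1-ifKO values lay close together and below every WT value, while the WT libraries spread more widely. On the log2 scale Dicer1-ifKO differed from WT by -0.15 (SE 0.06, 95% interval -0.26 to -0.04, adjusted p 0.341 in edgeR with Benjamini-Hochberg adjustment). Of the 8 tested members 2, Atf4 and Asns, had groups without overlap and both were lower in Dicer1-ifKO. Over all tested genes 16.1% had groups without overlap, 8.08% with Dicer1-ifKO lower and 7.99% with Dicer1-ifKO higher. Without WT replicate 1, the shallowest library, the Atf4 value was -0.12.

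Atf5 encodes the ATF4-related factor that takes part in the mitochondrial stress response, and Ddit3 encodes CHOP, the pro-apoptotic factor of lasting endoplasmic reticulum stress. Atf5 (chromosome 7, 44812257 to 44816658) had 11.3, 9.27 and 8.30 CPM in Dicer1-ifKO, against 7.32, 10.5 and 10.9 CPM in WT. The groups overlapped, with the lowest value in WT replicate 1 and the highest in Dicer1-ifKO replicate 1. Its log2 fold change was -0.03 (SE 0.14). The first 571 bases of Atf5 lie under Nup62 and 289 of them under Il4i1 on the other strand. Reads of the overlap cannot be told apart where counting ignored strand. The library kit was stranded, but the strand setting of the counting is not given in the sources used here. Nup62 and Il4i1 had log2 fold changes of 0.23 (SE 0.09) and 0.18 (SE 0.08), neither past the test, and their part in the Atf5 value was not tested. Ddit3 (chromosome 10, 127290774 to 127296288) had 20.7, 18.5 and 20.3 CPM in Dicer1-ifKO, against 22.6, 17.3 and 21.6 CPM in WT. The WT libraries held both the lowest and the highest value, and the log2 fold change was -0.04 (SE 0.09, 95% interval -0.23 to 0.14). Its last 68 bases overlap Mars, the methionyl-tRNA synthetase gene on the other strand.

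The feedback and effector members were the lowest of the 9 per length, and the errors of Trib3 and Chac1 were wide. Trib3, a pseudokinase that restrains ATF4 and CHOP, was near the detection floor: it had 5, 3 and 10 counts in Dicer1-ifKO (chromosome 2, 152337422 to 152344032), against 2, 4 and 2 counts in WT. A count of 3 corresponds to 0.146 to 0.255 CPM in these libraries, which covers counting error only. Trib3 did not pass the filter on low counts, and in edgeR without that filter its log2 fold change was 0.85 (SE 0.69, adjusted p 0.782 with Benjamini-Hochberg adjustment, where 0.673% of genes passed). Chac1, a glutathione-degrading enzyme gene (chromosome 2, 119351229 to 119354381), had 43, 26 and 61 counts in Dicer1-ifKO, against 29, 42 and 35 counts in WT. The Dicer1-ifKO libraries held both extremes, and the 95% interval of the log2 fold change ran from -0.48 to 0.47. Sesn2, a leucine sensor that restrains TORC1 (chromosome 4, 132492032 to 132510501), had 14.0, 11.0 and 12.9 CPM in Dicer1-ifKO, against 13.7, 11.6 and 13.0 CPM in WT, a log2 fold change of -0.01 (SE 0.11). Its groups overlapped throughout, and the second library was the lowest in each genotype.

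**Figure D1:**
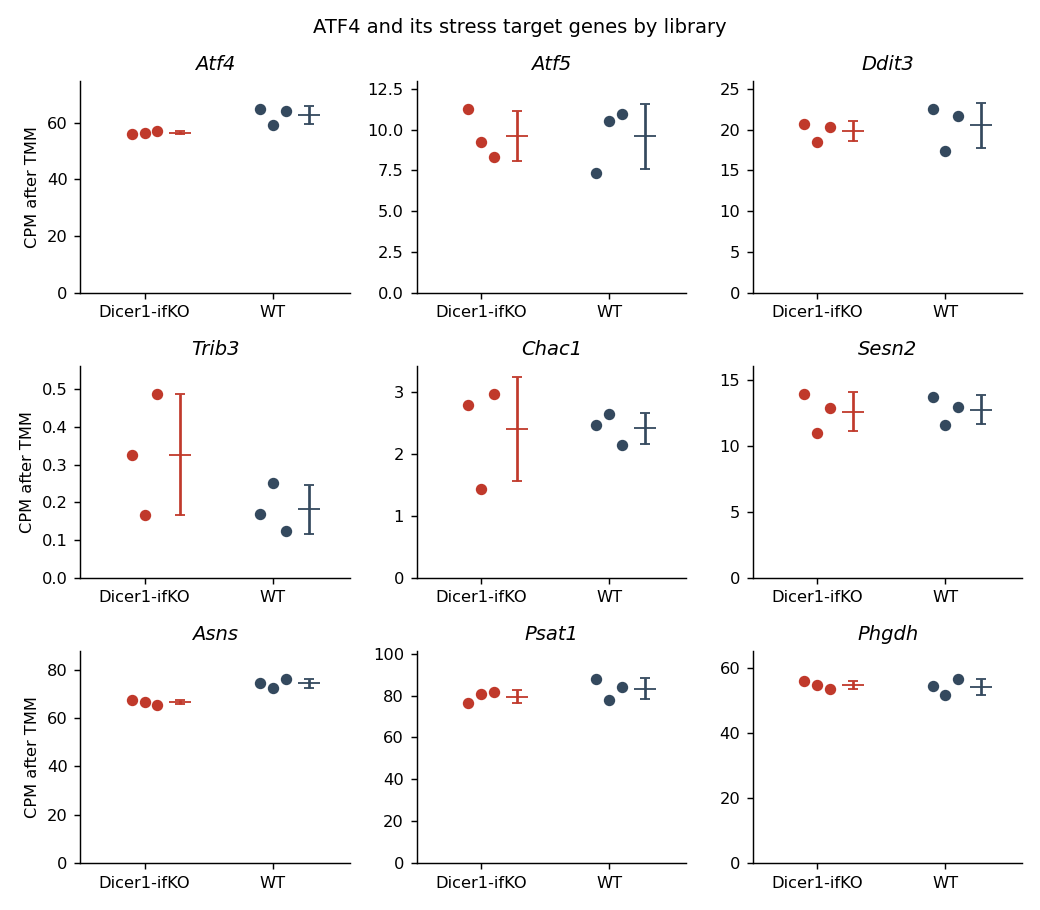
CPM after TMM scaling of the 9 members in each library, with mean ± SD (n = 3 libraries per genotype) beside the points and each vertical axis starting at 0. The Dicer1-ifKO points of Atf4 and Asns lie below all WT points, at 56.1 to 56.9 against 59.0 to 65.0 CPM and at 65.6 to 67.4 against 72.5 to 76.3 CPM, while the other 7 members overlap.

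Among the 3 biosynthetic enzymes, Asns had the most negative difference from WT, without passing the test. Asns encodes asparagine synthetase, which makes asparagine from aspartate and glutamine (chromosome 6, 7675169 to 7693254). It had 1038, 1203 and 1344 counts in Dicer1-ifKO, against 878, 1152 and 1240 counts in WT, or 67.4, 66.8 and 65.6 CPM in Dicer1-ifKO and 74.7, 72.5 and 76.3 CPM in WT. The gap between the groups was wider than the range of the Dicer1-ifKO libraries. The difference was -0.16 on the log2 scale (SE 0.05, 95% interval -0.26 to -0.06, adjusted p 0.234 in edgeR with Benjamini-Hochberg adjustment). It ranged from -0.18 to -0.13 over 13 alternative settings, with adjusted p between 0.152 and 0.538 in edgeR or DESeq2.

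Phgdh encodes phosphoglycerate dehydrogenase, which takes a glycolytic intermediate into serine synthesis, and Psat1 encodes phosphoserine aminotransferase, the next enzyme on that path. Psat1 (chromosome 19, 15904678 to 15925059) had 76.2, 80.7 and 81.6 CPM in Dicer1-ifKO, against 87.9, 77.9 and 83.9 CPM in WT. WT replicate 2 fell inside the Dicer1-ifKO range, and the log2 fold change was -0.06 (SE 0.06). Phgdh (chromosome 3, 98313170 to 98339990) had 56.2, 54.8 and 53.7 CPM in Dicer1-ifKO, against 54.4, 51.6 and 56.7 CPM in WT. Its log2 fold change was 0.02 (SE 0.06, 95% interval -0.10 to 0.13), and it was the only tested member with a positive value. Phgdh is known as an astrocyte-rich gene in the brain. The 10 astrocyte markers summed to 3673 to 3822 CPM in Dicer1-ifKO, against 3473 to 3643 CPM in WT, and these sums did not overlap, while 6 of 10 markers had negative log2 fold changes with a median of -0.02 and 0 passed the test. Slc1a2, the main glial glutamate transporter, averaged 2035 CPM over the 6 libraries and so held most of these sums. It had a log2 fold change of 0.14 (SE 0.05) and was higher in all 3 Dicer1-ifKO libraries. Aqp4, the astrocyte water channel, had -0.16 (SE 0.05) and was lower in all 3. The part of these markers in the Phgdh value was not tested, and in bulk tissue fewer cells of a type cannot be told from less RNA per cell.

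Phgdh counts are uncertain for a further reason. In GENCODE M21, 18 other genes held a same-strand stretch of at least 100 bases that was at least 90% identical to the Phgdh transcript, 15 of them over 1000 bases or more, with identity up to 98.7%. How reads that match several of these were counted is not given in the sources used here. Of the 18 genes only 1, Gm6756, was listed under its symbol among the counted transcripts, at a mean count of 11.0. Psat1 had 1 other gene with such a stretch, at 91.0% identity, and the other 7 members had none.

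Per length, the members spanned a wide range of levels. Asns averaged 33.3 ± 0.45 CPM per kb of exon in Dicer1-ifKO and 37.2 ± 0.94 in WT (SD, n = 3 each). Atf4 followed at 32.8 ± 0.24 in Dicer1-ifKO and 36.3 ± 1.83 in WT, then Psat1 at 30.4 ± 1.10 and 31.8 ± 1.94, and Phgdh at 29.0 ± 0.65 and 28.7 ± 1.34, in the same units and order of genotypes. Over the 6 libraries each of these 4 genes overlapped its neighbour in that order, while Asns (at least 32.8 CPM per kb) and Atf4 (at least 32.5) lay above Phgdh (at most 30.0) without overlap. Ddit3, at 22.3 ± 1.33 CPM per kb in Dicer1-ifKO and 23.0 ± 3.15 in WT, lay below all of them without overlap. Atf5 at 5.30 ± 0.84 and 5.28 ± 1.09, Sesn2 at 3.63 ± 0.43 and 3.67 ± 0.31, Chac1 at 1.47 ± 0.51 and 1.48 ± 0.15 and Trib3 at 0.161 ± 0.079 and 0.0897 ± 0.032 CPM per kb, in Dicer1-ifKO and WT in that order, each lay below the one before without overlap. The 4 highest members stood above 83% to 86.2% of tested genes, and Chac1 above 17.2%. For Atf4 and Atf5 the exon length was taken from the GENCODE transcript with nearly the same ends.

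**Figure D2:**
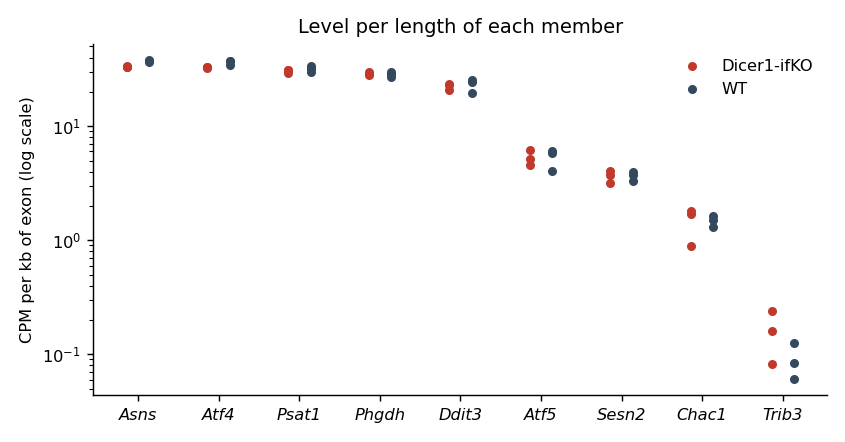
Level of each member per kb of exon on a log axis, 1 point per library (3 Dicer1-ifKO left, 3 WT right), ordered by the mean. Asns, Atf4, Psat1 and Phgdh lie between 27.3 and 38.1 CPM per kb, where Phgdh overlaps Psat1 but neither Asns nor Atf4, and the other 5 step down to Trib3 without overlap.

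The tables also list 29 transcripts of the members, of which 26 were tested and 0 passed (lowest adjusted p 0.275, edgeR over 60500 transcripts with Benjamini-Hochberg adjustment, where 0.0777% passed). The 2 full-length Asns transcripts had nearly equal counts and log2 fold changes of -0.18 (SE 0.06 and 0.06), since they share reads. Asns-007, a non-coding fragment over the 3′ part of the gene (chromosome 6, 7675470 to 7677385), had -0.31 (SE 0.10). The short transcripts of the 5′ part had values near 0: Asns-003 (7682273 to 7693110) had -0.0043 (SE 0.09), Asns-005 had 0.0068 (SE 0.12) and Asns-004 -0.03 (SE 0.12). Asns-006 (7681277 to 7682358), nearer the middle of the gene than Asns-007, was also near 0, at -0.02 (SE 0.11).

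Asns-007 and Asns-003 share no position, and they were set against each other after these values were seen. Asns-007 had 13.6, 16.2 and 14.7 CPM in Dicer1-ifKO, against 18.8, 16.2 and 19.6 CPM in WT. Asns-003 had 16.8, 17.4 and 15.9 CPM in Dicer1-ifKO, against 18.1, 16.1 and 15.7 CPM in WT. The log2 ratio of Asns-007 to Asns-003 was -0.30, -0.11 and -0.11 in Dicer1-ifKO, against 0.05, 0.02 and 0.32 in WT. All 3 Dicer1-ifKO ratios lay below all 3 WT ratios, with a difference of means of -0.30. No test is given, since the pair was picked for its values. Libraries also differed along exon length: the deviation of a library from the mean had, across genes, which are not independent replicates, a Spearman's rho with exon length of 0.12, 0.15 and 0.08 in Dicer1-ifKO and of -0.28, 0.08 and -0.11 in WT, and the part of this trend in the Asns ratio was not tested. When the fit included a length and GC offset, the Asns log2 fold change was -0.13 and that of Atf4 -0.13. In Psat1, the 3′ transcript Psat1-003 had -0.06 (SE 0.07), and the 5′ transcripts Psat1-004 and Psat1-007 had -0.36 (SE 0.26) and -0.13 (SE 0.10), none past the test.

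**Figure D3:**
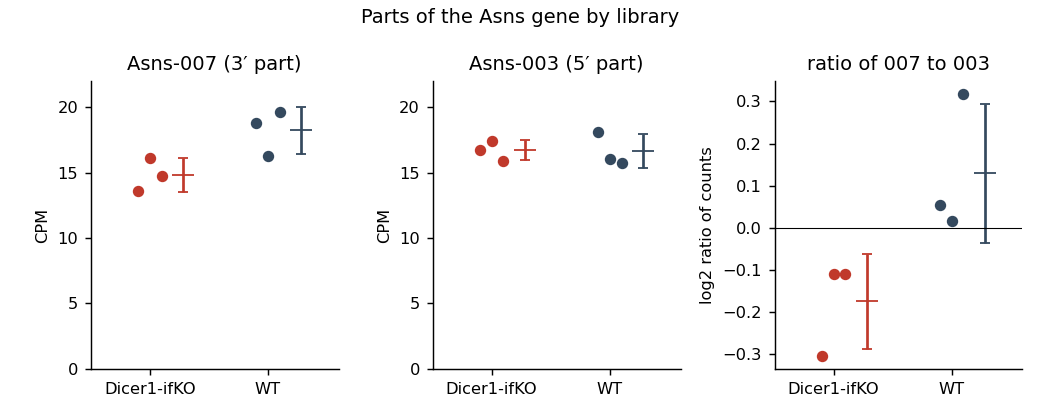
CPM of Asns-007 (3′ part) and Asns-003 (5′ part) and the log2 ratio of their counts, 1 point per library with mean ± SD (n = 3 per genotype). The ratios are -0.30 to -0.11 in Dicer1-ifKO and 0.02 to 0.32 in WT.

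The list of 15 genes upstream of ATF4 held those of eIF2, its kinases and its exchange factor eIF2B, and Gcn1l1, Impact and Eif2a. Of these 15 genes 1 fell and 0 rose, against 0.0345% of all genes that fell. It was Eif2s1, the alpha subunit of eIF2 that the stress kinases phosphorylate, with 32.9, 32.0 and 33.5 CPM in Dicer1-ifKO, against 40.0, 41.3 and 40.5 CPM in WT. The groups were far apart relative to their spread, with a difference of -0.31 on the log2 scale (SE 0.06, adjusted p 0.0452 in edgeR with Benjamini-Hochberg adjustment). The call was held in only 2 of 12 alternatives, upper quartile scaling and no filter on low counts. DESeq2 gave no adjusted p for Eif2s1 and is not among the 12. The call was lost whenever any 1 library was left out, at adjusted p of 0.0569 to 0.255 in edgeR. The value stayed between -0.33 and -0.29 over the 12 alternatives. The other subunits had -0.07 (SE 0.05) for Eif2s2 and 0.05 (SE 0.05) for Eif2s3x. The 4 eIF2 kinases had 0.05 for Eif2ak1, -0.01 for Eif2ak2, -0.09 for Eif2ak3 (PERK) and 0.03 for Eif2ak4 (GCN2), none past the test. Gcn1l1, which activates GCN2, had 0.16 (SE 0.08). Impact, which restrains GCN2 and was the gene with the highest CPM of the list, had 0.04 (SE 0.04). The median of the 15 genes was -0.014, and it was positive without WT replicate 3 (0.024), Dicer1-ifKO replicate 2 (0.013) or Dicer1-ifKO replicate 3 (0.024).

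Other transcription factors and feedback genes of the ATF4 branch did not pass the test. Of 20 listed, 17 were tested, 0 rose, 0 fell and 10 were negative, with a median log2 fold change of -0.010, which was 0.018 without WT replicate 1 and 0.037 without Dicer1-ifKO replicate 2. Atf3, Gdf15 and Fgf21, which rise strongly in an active stress response in other settings, did not pass the filter on low counts, at means of 0.307, 0.068 and 0.029 CPM over the 6 libraries. Jdp2, a bZIP repressor, had -0.16 (SE 0.08) and Cebpg, a C/EBP partner of ATF4, -0.12 (SE 0.07). Ppp1r15a, which encodes the GADD34 subunit that directs eIF2 dephosphorylation, had -0.02 (SE 0.11). Nfe2l1, the gene with the highest CPM of the list, had 0.03 (SE 0.05).

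Among downstream genes, cytosolic aminoacyl-tRNA synthetases had a median log2 fold change of -0.04, with 13 of 20 negative and 0 past the test in either direction. Groups did not overlap in 4 of the 20, or, over all genes, in 16.1%. Dars, the aspartyl-tRNA synthetase, averaged 59.3 ± 3.35 CPM in Dicer1-ifKO and 68.3 ± 1.38 CPM in WT (SD, n = 3 libraries each), or -0.20 on the log2 scale (SE 0.06, adjusted p 0.177 in edgeR). Hars had -0.11 (SE 0.05) and Nars, with the highest CPM of the list, -0.07 (SE 0.05). The summed level of the 20 genes was 1376 to 1418 CPM in Dicer1-ifKO, against 1428 to 1442 CPM in WT, so the sums did not overlap. This sum is a description with no test, and in every other pathway list the sums of the genotypes overlapped.

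Enzymes of serine, one-carbon and transsulfuration metabolism had 11 of 18 negative, a median of -0.02 and 0 past the test. Shmt2, the mitochondrial enzyme that splits serine for one-carbon units, averaged 14.2 ± 0.48 CPM in Dicer1-ifKO and 17.6 ± 1.73 CPM in WT (SD, n = 3 libraries each), or -0.30 on the log2 scale (SE 0.09, adjusted p 0.218 in edgeR). Psph, the enzyme after PSAT1 on the serine path, had 0.05 (SE 0.10).

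Amino acid transporters that ATF4 induces had 4 of 11 tested negative, a median of 0.0078 (-0.00083 without Dicer1-ifKO replicate 3) and 0 past the test. Slc7a11, the cystine importer and the one with the highest CPM, not scaled to length, had -0.10 (SE 0.05). Slc7a5, a large neutral amino acid transporter, had -0.11 (SE 0.08). Genes of sestrins and TORC1 had 6 of 15 negative and a median of 0.0082, which was -0.0061 without WT replicate 1 and -0.011 without Dicer1-ifKO replicate 1. Sesn3, a relative of Sesn2, had 0.32 (SE 0.12, adjusted p 0.318 in edgeR) and was higher in all 3 Dicer1-ifKO libraries. Mtor had 0.11 (SE 0.05), and Tsc2, with the highest CPM of the list, 0.06 (SE 0.05).

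The XBP1 and ATF6 branches of the unfolded protein response, which run beside the ATF4 branch, had 7 of 21 negative and a median of 0.04, with 0 past the test. The median was -0.0025 without WT replicate 3 and -0.044 without Dicer1-ifKO replicate 3. Atf6 itself had 0.12 (SE 0.05) and Sdf2l1, an endoplasmic reticulum chaperone partner, 0.37 (SE 0.18). Hspa5, the chaperone BiP, had 0.01 (SE 0.07), and Hsp90b1, with the highest CPM of the list, -0.0038 (SE 0.05).

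**Figure D4:**
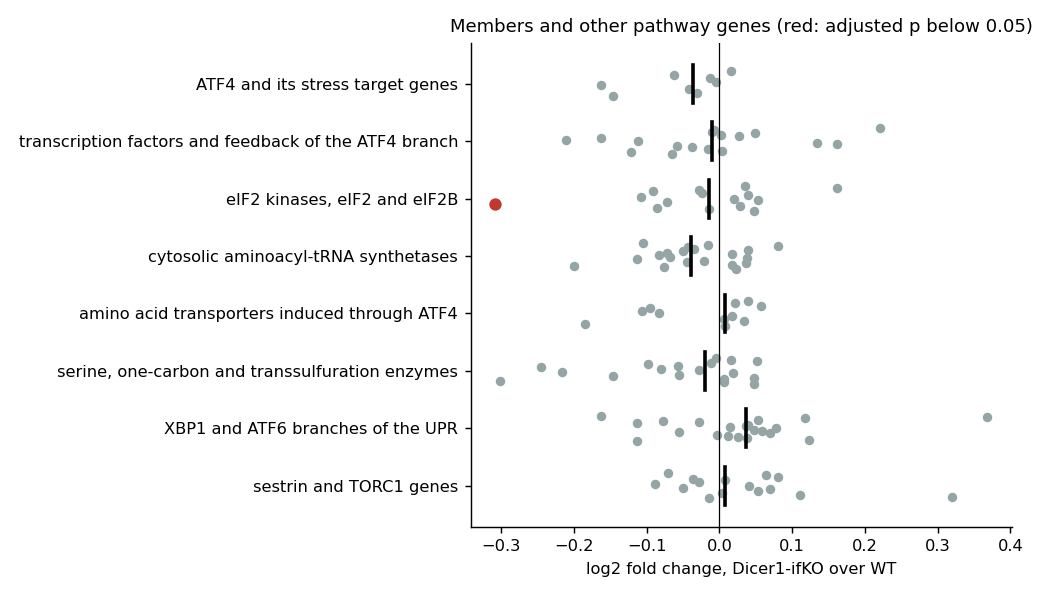
Log2 fold changes (Dicer1-ifKO over WT) of the 8 tested members and of the tested genes of 7 other lists, 1 point per gene, with black bars at the medians (-0.04 for the members, -0.04 to 0.04 for the lists). The single red point is Eif2s1 at -0.31, the only gene shown that passed the test.

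Across the 6 libraries, the genes whose log2 CPM followed Atf4 most closely were Tceal8, Stx12, Ppia, Ppp2ca and Psmc3, with Pearson's r of 0.985 to 0.992 among 10634 candidates. As a description over the 6 libraries, which include the difference between genotypes, r with Atf4 was 0.92 for Asns, 0.81 for Psat1 and 0.58 for Ddit3, against 0.33 for Sesn2, 0.16 for Phgdh, 0.0094 for Chac1 and -0.29 for Atf5. The libraries share depth and length effects, and 98.7% of the candidates had a lower r than Asns. That share was 93.4% for Psat1, 80.7% for Ddit3, 66.8% for Sesn2, 57.5% for Phgdh, 50.3% for Chac1 and 35% for Atf5. The 5 closest genes had log2 fold changes between -0.27 and -0.09, none past the test.

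Counts over the representative transcripts summed to 15409074 to 20677845 in Dicer1-ifKO libraries and 11832794 to 16125481 in WT libraries. WT replicate 1, the shallowest, stood apart from the other 5 libraries: its score on principal component 1, with 30.3% of the variance, was 24.5, and theirs ran between -9.43 and -1.11. Dicer1 had a log2 fold change of 0.04 (SE 0.06), and its single listed transcript does not separate the floxed exons, so it does not check the deletion. Esr1, the estrogen receptor gene, of whose human form the recombinase carries a part, had 10.1 to 13.7 CPM in Dicer1-ifKO, against 3.26 to 4.78 CPM in WT, and rose by 1.58 on the log2 scale (SE 0.15). Excitatory neuron markers summed to 5800 to 6178 CPM in Dicer1-ifKO and 5663 to 5821 CPM in WT, with 0 of 10 past the test. Microglia markers summed to 440 to 446 CPM in Dicer1-ifKO and 447 to 482 CPM in WT, sums that did not overlap, with 7 of 10 negative and 0 past the test. Inhibitory neuron, oligodendrocyte, endothelial and choroid plexus markers had 0 past the test and sums that overlapped. No marker was at 0 in all libraries, and the part of any marker list in the members' values was not tested.

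**Figure D5:**
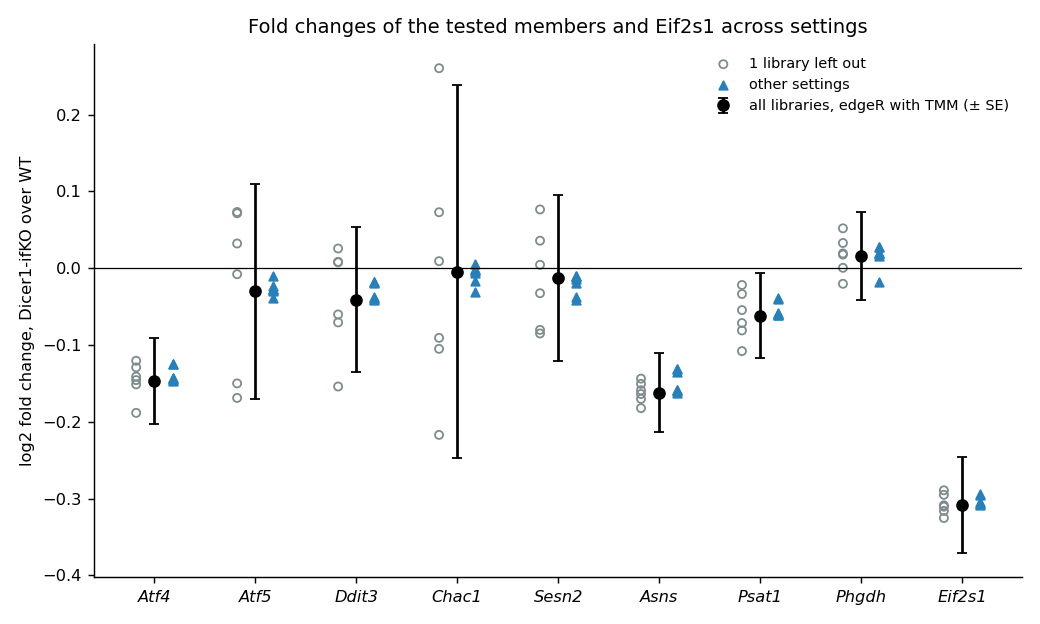
Log2 fold changes of the 8 tested members and Eif2s1 with all libraries (black, ± SE), with 1 library left out (open circles) and under the other settings (triangles). Atf4, Asns, Psat1 and Eif2s1 stay below 0 in every setting shown, while Atf5, Ddit3, Chac1, Sesn2 and Phgdh lie on both sides. DESeq2 gave no adjusted p for Eif2s1 and is not shown for it.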

How the data were processed

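Each deposited table lists 76938 transcripts with coordinates, a raw count and a normalised count, per the file headers. The authors' raw counts are whole numbers, and transcripts with shared exons have shared reads. Their normalised signal column is the same count after division by a library factor, per the file headers and values, and was not tested. Per the submitters' processing notes, the tools were DESeq2, TopHat2 2.0.6, CASAVA 1.8.2, SAMtools 0.1.18 and Bowtie2 2.0.5, and the build was GRCm38. The sources used here name no counter, annotation release or strand setting.

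Per the labels' protocols, RNA of 3 mice was pooled per library and replicates were biological, so 9 mice per genotype entered the libraries; the design text states 12. No pair of libraries of the same genotype agreed within sampling noise (chi-square per degree of freedom 1.75 to 4.35). The design assumed 1 count per gene from the representative transcript. Dicer1-ifKO was compared with WT in edgeR 4.0.16 and R 4.3.3 (quasi-likelihood test, TMM, filterByExpr with a minimum count of 10, prior count 0.125), with Benjamini-Hochberg adjustment at 0.05; SE is the fold change over the root of F, and 95% intervals are 1.96 SE wide on each side. The factor 1.96 is that of a normal distribution, so these intervals are narrower than the F test implies. CPM are counts over TMM-scaled library size. DESeq2 1.42.0, other scalings, filters, offsets, the replicate block and leaving out libraries were alternatives. Steps were tested on simulated data. Members and lists were chosen with earlier results of these data known. Named were the members, Dicer1, Esr1 and Eif2s1. From each pathway list came the 2 genes of smallest p and the gene with the highest mean CPM, not scaled to length. The 5 genes with the highest Pearson's r with Atf4 over the libraries were also named. They had a mean log2 CPM of at least 3 (pseudocount 0.25). The markers and the other list genes given with values were chosen after their values were seen. Some genes that this rule names are not reported here.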

Additional observations from a re-analysis of the deposited data

How the results depend on the processing

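The fold changes of Atf4, Asns and Psat1 kept their sign in all 13 alternatives, and no member passed in any of them. The count of called genes was 28 and became 74 with DESeq2 (which gave an adjusted p for 4748 genes), 151 with no filter on low counts, 7 with sums over transcripts and 6 to 105 with 1 library left out (18 without WT replicate 1, 105 without WT replicate 2, 14 without WT replicate 3, 6 without Dicer1-ifKO replicate 1, 18 without Dicer1-ifKO replicate 2). The cause was not tested. The deviations of same-numbered libraries from their genotype means had correlations of -0.0656, 0.0341 and -0.0886. With 3 libraries per genotype, these values do not settle whether the numbers mark a pairing. Only WT replicate 2 correlated best with the library of its own number. With the replicate block 22 genes were called, and 16 with the block and the length and GC offset. The values of 5 members changed sign with 1 library left out, over -0.17 to 0.073 for Atf5, -0.15 to 0.026 for Ddit3, -0.22 to 0.26 for Chac1, -0.085 to 0.076 for Sesn2 and -0.020 to 0.052 for Phgdh. Chac1 was 0.0054 with the length and GC offset and Phgdh -0.019 with sums over transcripts. With 1 library left out the median of the members was -0.095 to -0.00018, that of the eIF2 list -0.015 to 0.024, of the synthetases -0.041 to -0.014, of the serine list -0.045 to -0.0036, of the ATF4-branch factors -0.049 to 0.037, of the transporters -0.00083 to 0.027, of the XBP1 and ATF6 list -0.044 to 0.066 and of the sestrin list -0.011 to 0.040. With sums over transcripts the eIF2 median was -0.032 and the sestrin median 0.037, and with the length and GC offset the transporter median was -0.011. Trib3 did not pass the filter on low counts and so was not tested in the main fit, and the Chac1 interval was wide.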
